A study of Mus musculus with 4 samples.

Results

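The region described here is the Lce1 cluster of the Epidermal Differentiation Complex (EDC), taken as 92.44 to 92.7 Mb of mouse chromosome 3 (mm9). A 5C contact belonged to it when the midpoint of at least 1 of its fragments lay in this 260 kb window. By this rule 41 of the 712 HindIII fragments listed in any library, 20 with forward and 21 with reverse probes, lay in the window. They took part in 12777 of the 111588 contacts listed in any library and in 2994 of the 23395 contacts listed in all 4. Of these 2994 contacts, 158 joined 2 fragments of the window and 2836 led from the window to the rest of the locus. The locus spans 89900000 to 95200000 on chromosome 3.

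5C (Chromosome Conformation Capture Carbon Copy) joins pairs of probes where digested and religated chromatin placed 2 restriction fragments next to each other. The libraries were 2 of primary epidermal keratinocytes and 2 of primary thymocytes, all from newborn C57BL/6 mice with no genetic change named. The keratinocytes had been held for 15 hours at 32 °C in low-calcium medium on collagen after isolation, the thymocytes were the total T cell population of crushed thymi, and both were fixed in 1% formaldehyde for 10 minutes. The comparison asks how a cluster of keratinocyte genes folds in the cell type that can express it and in one that does not use it. Neither population was sorted, the number of mice behind a library was not given, and low calcium holds keratinocytes back from terminal differentiation. The files hold contacts and no expression, so the labelled cell types could not be checked against their markers. P-values for differences between the cell types measure only the spread between the libraries of a cell type. Those for differences from other gene clusters rest on all 4 libraries, and the deposited q-values on the contacts within 1 library.

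The Lce (late cornified envelope) genes encode small proteins that transglutaminases cross-link into the cornified envelope, the protein shell that replaces the plasma membrane of dying keratinocytes at the skin surface. The EDC gathers them with the genes for other envelope proteins, among them loricrin (Lor), involucrin (Ivl), the small proline-rich proteins (Sprr) and filaggrin (Flg). The S100 genes at its ends encode calcium-binding proteins. The envelope genes are switched on late in keratinocyte differentiation and are silent in T cells.

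The annotation bore out the label. Of 14 protein-coding genes in the window, 12 were Lce1 genes, from Lce1a1 (chr3:92450454-92452229) to Lce1l (chr3:92653871-92655208). The other 2 were Kprp, which encodes a keratinocyte proline-rich protein, and 2310050C09Rik. All but Lce1c lay on the minus strand, 13 of 14. The fragments covered 146.802 kb, or 56.5%, of the window, and were denser upstream, with 28 fragments in the first 130 kb and 13 in the last 130 kb. The widest stretch without a fragment, of 30.387 kb, held Lce1j, and no fragment overlapped Lce1c, Lce1f, Lce1g or Lce1j. A transcription start site (TSS) lay inside 9 fragments, those of Lce1a1, Lce1b, Lce1a2, Lce1d, Lce1e, Lce1h, Kprp, Lce1l and 2310050C09Rik, and 34 fragments lay within 5 kb of one. HindIII cut 7 of the 14 genes (6 Lce1 genes and Kprp), in each case within an intron and never within an exon.

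The Lce1 genes are close copies of each other, so the probes were compared first. All 41 probes of the window matched mm9 at their fragment, and the genomic part of each, 30 bases, differed from that of every other probe by at least 11 bases. What the method counts is the 60-base junction of a forward and a reverse probe. The junctions of 7 contacts on which the results turn are printed here 5′ to 3′, with the HindIII site at which the fragments met in capitals. The forward part is plus strand, and the reverse part, from the CTT on, is minus strand. The first 4 are among the 10 strongest calls of the window in keratinocytes, 3 of them with Lor and 1 with Prr9. The next 2 are the strongest thymocyte contacts of the window with an S100 and with an Sprr gene, and the last joins 2 Lce1 genes.
Lor TSS fragment to Lce1a2 TSS fragment: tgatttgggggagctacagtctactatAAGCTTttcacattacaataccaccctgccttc
Kprp TSS fragment to a fragment 10586 bp from the Lor TSS: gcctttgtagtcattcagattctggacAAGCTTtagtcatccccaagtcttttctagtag
Fragment 7519 bp from the Lce1l TSS to the same Lor fragment: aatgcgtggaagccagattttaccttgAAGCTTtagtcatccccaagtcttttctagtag
Fragment 14210 bp from the Prr9 TSS to the last window fragment, 15477 bp from the 2310050C09Rik TSS: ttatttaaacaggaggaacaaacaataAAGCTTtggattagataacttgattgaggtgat
Intron of S100a13 to Lce1a2 TSS fragment: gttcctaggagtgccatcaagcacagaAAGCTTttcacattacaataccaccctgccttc
Lce1l TSS fragment to a fragment 2398 bp from the Sprr3 TSS: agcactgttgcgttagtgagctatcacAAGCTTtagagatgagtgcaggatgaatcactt
Intron of Lce1d to Lce1a2 TSS fragment: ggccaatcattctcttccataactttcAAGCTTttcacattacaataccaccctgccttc

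The probe parts of these junctions lay at chr3:91893320-91893349 (Lor TSS fragment), chr3:91900310-91900339 (the second Lor fragment), chr3:91913630-91913659 (Prr9) and chr3:90323024-90323053 (S100a13). They lay at chr3:92259112-92259141 for Sprr3, chr3:92475956-92475985 for Lce1a2, chr3:92490399-92490428 for Lce1d and chr3:92632983-92633012 for Kprp. The 2 fragments of Lce1l had theirs at chr3:92656137-92656166 and chr3:92664253-92664282, and the last fragment of the window at chr3:92692311-92692340. The parts in S100a13 and Lce1d were intronic and the others were intergenic.

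Within the window, Lce1 fragments met each other less often in keratinocytes than in thymocytes, relative to the frequency expected for their distance. The files give an observed 5C frequency, corrected for probe efficiency, and an expected one from the distance curve of the library. Their difference, in units of the expected standard deviation, is the Z score. The frequencies of different libraries were not scaled to each other, and the raw counts are unknown, so no counting error can be given. Values are given for libraries 1 and 2 of each cell type, over the contacts listed in all 4. The mean Z score of the 158 internal contacts was 0.0572 and 0.0446 in keratinocytes and 0.401 and 0.375 in thymocytes. The libraries of a cell type lay close together and did not overlap with those of the other. The group means were 0.0509 ± 0.00893 and 0.388 ± 0.0188 (SD, n = 2 each), a difference of -0.337 (two-sided exact permutation test, p = 0.333, the smallest that 2 libraries against 2 can give). Of the internal contacts, 44.9% and 45.6% had a Z score above 0 in keratinocytes and 63.3% and 62.0% in thymocytes.

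The same difference held for the ratio of observed to expected frequency. Its mean log2 was -0.37 and -0.14 in keratinocytes and 0.06 and 0.04 in thymocytes, a difference of -0.30. Without keratinocyte library 1 the difference shrank to -0.19. The observed frequencies alone did not separate the cell types. Their mean log2 was 9.99 and 9.54 in keratinocytes and 9.98 and 10.08 in thymocytes, and overlapped.

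The observed and expected frequencies of the cell types crossed with distance. Between adjacent fragments (9 contacts), the median observed frequency was 9055 and 10566 in keratinocytes and 73442.5 and 90801 in thymocytes, and the median expected frequency 8837 and 8459 against 56823 and 70413. Thymocyte libraries were thus several times higher in both. At 10 to 19 kb (21 contacts) the observed medians were 1745 and 1201 in keratinocytes and 1810 and 1848 in thymocytes, and the expected ones 1818, 1162, 1583 and 1607 in the same order. At 100 to 260 kb (40 contacts) the order had turned, with observed medians of 580 and 312 in keratinocytes and 262 and 248 in thymocytes, beside expected medians of 547, 314, 206 and 232. The plot of internal contacts by distance shows the thymocyte curves falling more steeply.

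**Figure D1:**
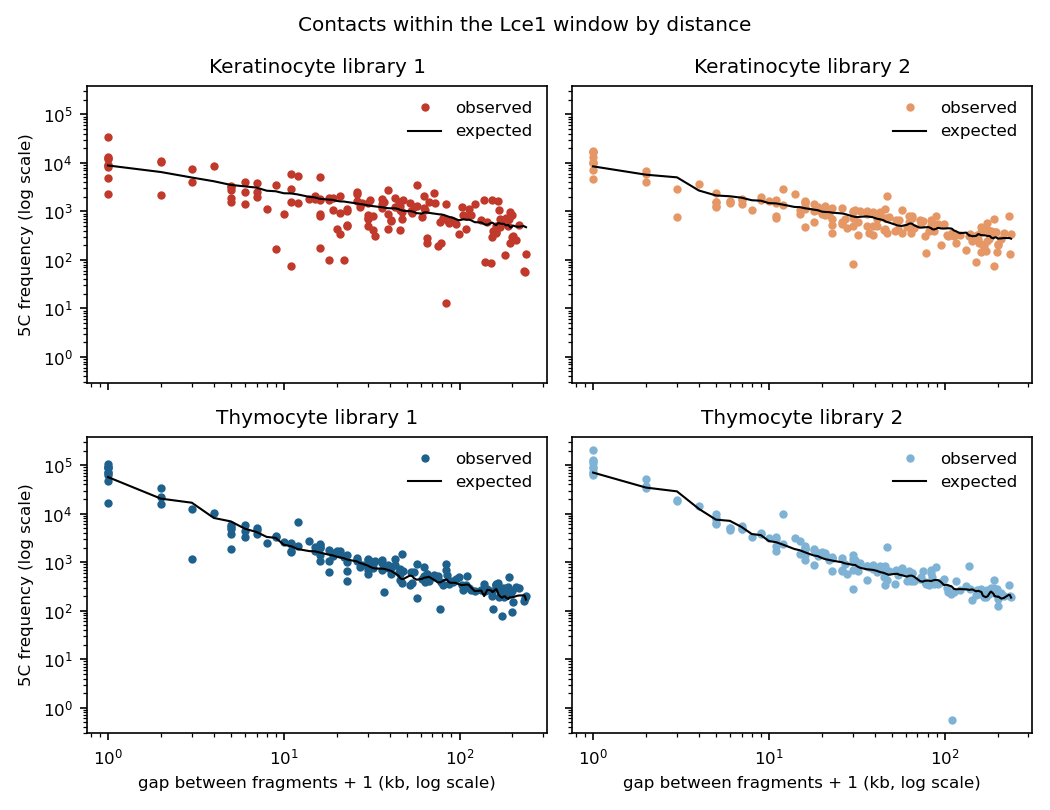
Observed 5C frequency (points) of the 158 contacts within the Lce1 window and the expected frequency (line) against the gap between fragments plus 1 kb, both axes on a log scale, 1 panel per library. The thymocyte values start higher, at a median of 73442.5 and 90801 between adjacent fragments, and end lower than those of keratinocytes, and 1 contact of thymocyte library 2 lies near 0.

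The difference in Z score was wide between 10 and 49 kb. At 10 to 19 kb the mean Z score was -0.101 and 0.121 in keratinocytes and 0.646 and 0.705 in thymocytes. At 20 to 49 kb (40 contacts) it was -0.231 and -0.0447 against 0.451 and 0.275. Adjacent fragments overlapped between cell types (0.612 and 0.860 against 0.666 and 1.31). The difference was -0.269 for the 115 contacts within the first 130 kb of the window and -0.462 for the 39 contacts between there and the last 130 kb. Within the last 130 kb, 4 contacts were listed in all 4 libraries.

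Single contacts were divided in the same way. Both keratinocyte libraries lay above both thymocyte libraries in 9 of the 158 internal contacts (5.70%), and both lay below in 46 (29.1%). Over all 23395 contacts of the locus the corresponding shares were 21.1% and 19.1%, and over the 2836 outward contacts of the window 20.6% and 18.8%. These sets were not matched for distance, with a median of 934 kb over the locus against 38 kb within the window. Among 18 regions of the locus, the mean Z score within the region separated the cell types with keratinocytes higher in 16.7% and thymocytes higher in 50%, so the direction seen within Lce1 was that of 9 regions.

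An interaction counted as called when its q-value was below 0.05 in each of the 2 libraries. Over all contacts of the locus 1.99% were called in keratinocytes and 4.03% in thymocytes, and over those of up to 260 kb 2.55% and 5.29%. In keratinocytes 1 of 209 internal contacts was called, between the fragments 12951 bp from the Kprp TSS and 4999 bp from the 2310050C09Rik TSS (Z scores 2.86 and 6.97). This contact had a Z score of 8.42 in thymocyte library 1 and was not listed in thymocyte library 2. In thymocytes 3 of 202 were called. One of them joined the Lce1d intron to the Lce1a2 TSS fragment over 11 kb, with Z scores of 7.87 and 8.60 in thymocytes and 2.95 and 2.34 in keratinocytes. Its observed frequency was 6789 and 9811 in thymocytes and 5387 and 2868 in keratinocytes, above the expected frequency in all 4 libraries. Another joined the Lce1l TSS fragment to a fragment 3220 bp from the Lce1a1 TSS, at opposite ends of the cluster and 189 kb apart. Its Z scores were 2.77 and 2.90 in thymocytes and -0.129 and -1.77 in keratinocytes.

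Compared with other EDC clusters at the same distances, up to 174 kb, Lce1 was not set apart by its level. Its 142 contacts had a mean Z score of 0.0996 and 0.00118 in keratinocytes and 0.349 and 0.354 in thymocytes. The filaggrin group (271 contacts) was higher in all 4 libraries, with a mean of Lce1 minus filaggrin of -0.131 (two-sided exact permutation test over the signs of 4 libraries, p = 0.125, the smallest possible, adjusted 0.375 over 3 clusters). Against the Sprr2 cluster the mean difference was -0.0516 (exact permutation p = 1) and against the Lce3 and Crct1 group 0.163 (exact permutation p = 0.375). Each of these was higher than Lce1 in some libraries and lower in others. Between the cell types, keratinocytes were lower in the filaggrin group too, by -0.250 against -0.301 for Lce1. Under 50 kb the differences were -0.627 and -0.426 in the same order. From 50 kb on keratinocytes were higher in the filaggrin group (0.147) and the Lce1 libraries overlapped. Over all these distances the libraries overlapped in the Sprr2 cluster and in the Lce3 and Crct1 group.

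Outward, the Lce1 window had higher mean Z scores in keratinocytes than in thymocytes toward Lor and the gene-poor region upstream of it. Toward the direct neighbours on both sides they were lower. Toward several far regions the means were lower too, but most of these differences were not seen in the median. The rest of the locus was divided into 17 regions by their genes. The libraries did not overlap for 13 of them. Keratinocytes were higher toward 3 regions, against a background of 17% of the 153 pairs of regions of the locus, and thymocytes toward 10, against 42.5%. Averaged over all partners the cell types hardly differed, with mean Z scores of 0.487 and 0.447 in keratinocytes and 0.502 and 0.545 in thymocytes. After each library's mean over all contacts was subtracted this small difference changed sign, from -0.0563 to 0.0545, and the libraries overlapped. No partner passed a test (exact permutation p = 0.333 for each of the 13, adjusted 0.436 over 17 partners).

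**Figure D2:**
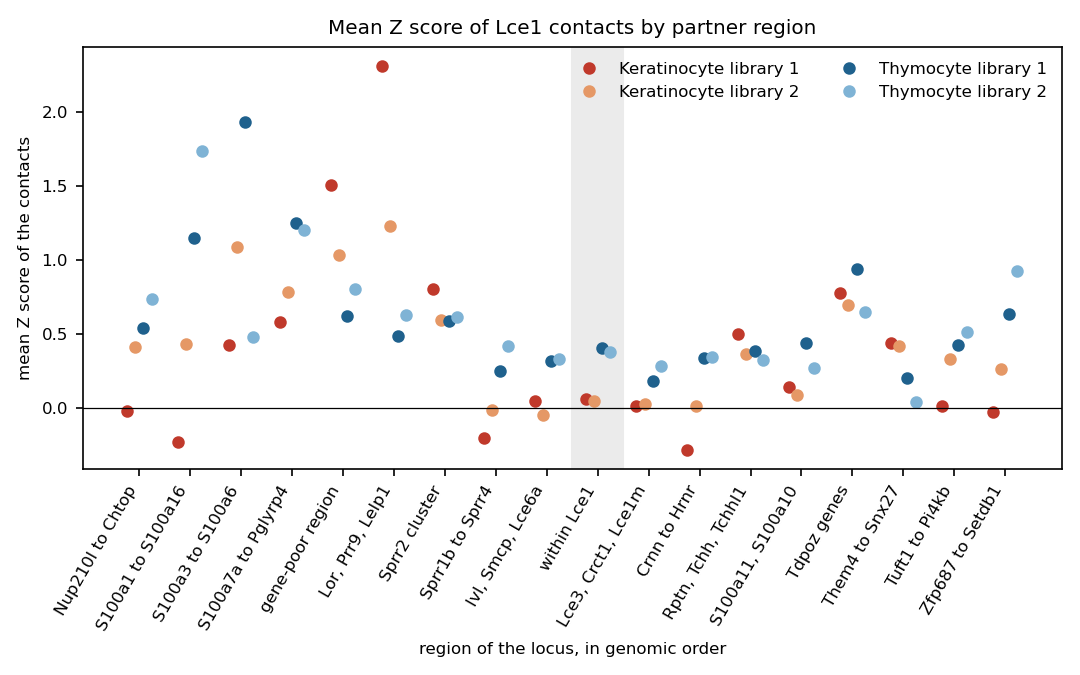
Mean Z score of the contacts of the Lce1 window with each region of the locus, in genomic order, 1 point per library, with the contacts within Lce1 shaded. Both keratinocyte libraries lie highest toward Lor, Prr9 and Lelp1 (2.31 and 1.23), above the thymocyte libraries there and toward the gene-poor region (1.51 and 1.03), and below the thymocyte libraries toward the regions on either side of the window.

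Of the 3 regions toward which keratinocytes were higher, Lor, Prr9 and Lelp1 had the largest difference. Lor encodes loricrin, the main protein of the cornified envelope. Over 157 contacts with a median distance of 580 kb, the mean Z score was 2.31 and 1.23 in keratinocytes and 0.486 and 0.623 in thymocytes. All 4 libraries were above 0 and the keratinocyte ones were well above the others. The group means were 1.77 ± 0.762 and 0.555 ± 0.0967 (SD, n = 2), and without keratinocyte library 1 the difference of 1.21 became 0.675. The median observed frequency was 360 and 163 in keratinocytes and 94.5 and 96.2 in thymocytes, beside expected medians of 206, 118, 84.1 and 85.1. On the log2 scale observed over expected was 0.56 and 0.46 in keratinocytes and 0.14 and 0.16 in thymocytes.

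The excess was spread over many pairs. In 65 of the 157 contacts (41.4%) both keratinocyte libraries were above both thymocyte libraries, and in 18 (11.5%) both were below. Over all 23395 contacts of the locus, not matched for distance, these shares were 21.1% and 19.1%. Of 32 Lce1 fragments with contacts to these genes, 17 were higher in keratinocytes, 0 in thymocytes and 15 overlapped. Over all 7925 combinations of a fragment of the locus with another region, 18.2% were higher in keratinocytes and 23% in thymocytes. The highest keratinocyte values among fragments with at least 5 contacts were those of the Lce1e TSS fragment (5.64 and 3.32, against 0.556 and 0.0467 in thymocytes) and of the last fragment of the window (3.84 and 3.27, against 1.31 and 0.508). The Lce1d TSS fragment had 3.49 and 1.47 against 0.465 and -0.463. The Lce1a2 TSS fragment overlapped, with 0.394 and -0.306 in keratinocytes and -0.0327 and -1.53 in thymocytes over 5 contacts.

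On the Lor side, 7 of 16 fragments were higher in keratinocytes, 2 in thymocytes and 7 overlapped, beside the same background of 18.2% and 23%. The fragment that holds the Lor TSS (chr3:91876919-91893349) had a mean Z score toward the window of 5.33 and 1.05 in keratinocytes and 0.334 and 0.289 in thymocytes. The next one, 10586 bp from the TSS (chr3:91897650-91900339), had 7.91 and 2.48 against 0.767 and 1.46. Library 1 was far above library 2 in both of these keratinocyte values. The libraries were closer at a fragment 14210 bp from the TSS of Prr9, which encodes a proline-rich protein of the same locus (3.55 and 3.39 against 0.773 and 0.860). The fragment 8635 bp from the Lelp1 TSS had 3.64 and 2.47 against 0.617 and 0.775. Keratinocyte library 1 listed 175, 184 and 233 contacts of the second Lor, the Prr9 and the Lelp1 fragment over the whole locus, where library 2 listed 249, 256 and 255. The part that these shorter lists had in the values was not tested.

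**Figure D3:**
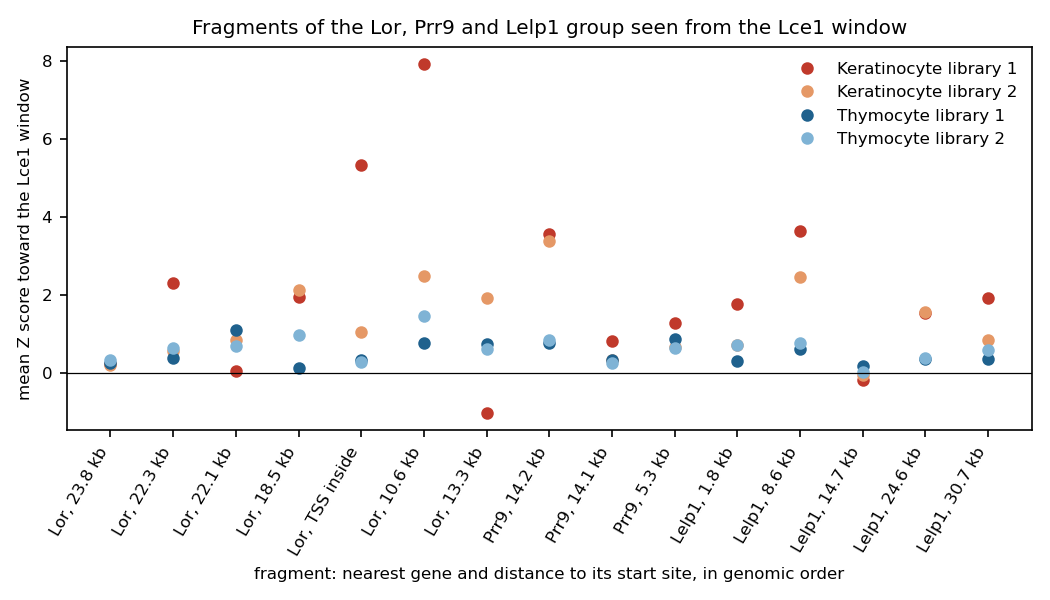
Mean Z score toward the Lce1 window of the 15 fragments around Lor, Prr9 and Lelp1 with at least 5 contacts, in genomic order, 1 point per library. The 2 keratinocyte libraries stand above the thymocyte libraries at 7 fragments, reaching 7.91 and 2.48 at the fragment 10586 bp from the Lor start site.

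Other contacts at the same distance were compared next. Over the same 460 to 796 kb, the Lor group had mean Z scores toward other regions of 0.688 and 0.353 in keratinocytes and 0.289 and 0.364 in thymocytes (87 contacts). The Lce1 window toward other regions had 0.587 and 0.426 against 0.351 and 0.448 (645 contacts), and contacts of neither had 0.399 and 0.439 against 0.737 and 0.635 (2092 contacts). The Lce1 to Lor contacts were above the last set in both keratinocyte libraries and below it in both thymocyte libraries. They exceeded those of Lce1 with other regions by 1.72 and 0.804 in keratinocytes and by 0.135 and 0.175 in thymocytes (exact permutation p of this difference = 0.333).

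Calls were more frequent too. In keratinocytes 25 of 265 contacts with the Lor group were called (9.43%), against 1.99% of the 57186 contacts over the locus. In thymocytes 7 of 191 were called (3.66%), against 4.03% of 31105. Of those whose junctions are printed above, the Lor and Lce1a2 TSS fragments, 581 kb apart, had observed frequencies of 1341 and 382 in keratinocytes, where 205 and 110 were expected (Z scores 11.61 and 5.39), and a Z score of 3.50 in thymocyte library 1 with no listing in library 2. The Kprp TSS fragment and the second Lor fragment had Z scores of 12.39 and 5.70 in keratinocytes and -1.56 and 1.26 in thymocytes. The Lce1l fragment and the same Lor fragment were high in all 4 libraries, with 6.60 and 5.48 in keratinocytes and 3.88 and 12.24 in thymocytes. The last fragment of the window met the Prr9 fragment with 6.38 and 9.03 in keratinocytes and 3.30 and 2.23 in thymocytes.

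Beyond Lor, the gene-poor region (from 4930529C04Rik to Pglyrp3) showed a smaller difference of the same sign. Its 424 contacts with the window had a mean Z score of 1.51 and 1.03 in keratinocytes and 0.618 and 0.802 in thymocytes. The difference of 0.560 became 0.323 without keratinocyte library 1. The median observed frequencies were 173 and 85.5 against 60.2 and 60.6, with expected medians of 115, 67.2, 56.5 and 54.8. The libraries were apart only on the side nearest to Lor. At 580 to 780 kb upstream of the window (180 contacts) the values were 1.85 and 1.07 against 0.399 and 0.658. At 780 to 980 kb (34 contacts, 4 partner fragments) they were 2.18 and 1.30 against 0.688 and 0.726. At 980 to 1180 kb (65 contacts) they were still apart (1.28 and 1.09 against 0.657 and 0.522). In the 3 steps from 1180 to 1780 kb (77, 36 and 32 contacts) the libraries overlapped. In the last of these keratinocytes still had 1.20 and 1.40, beside 0.988 and 2.01 in thymocytes. Called contacts made up 36 of 907 in keratinocytes (3.97%, against 1.99% over the locus) and 22 of 513 in thymocytes (4.29%, against 4.03%).

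Between Lor and Lce1 lies the Sprr2 cluster, whose genes encode small proline-rich bridging proteins of the envelope. There the libraries overlapped, with 0.801 and 0.593 in keratinocytes and 0.587 and 0.611 in thymocytes over 217 contacts.

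The direct neighbours on both sides gave the opposite order. Upstream lie the other Sprr genes and Ivl, which encodes involucrin, an early scaffold of the envelope, and downstream the Lce3 and Crct1 genes, with Lce1m among them, and the filaggrin group. Filaggrin bundles keratin filaments in the outer layers. The mean Z score toward Ivl, Smcp and Lce6a (128 contacts, median distance 99.5 kb) was 0.0453 and -0.0480 in keratinocytes and 0.313 and 0.327 in thymocytes. Toward Lce3 and Crct1 (252 contacts) it was 0.0123 and 0.0244 against 0.178 and 0.284. Each pair of libraries was narrow and apart from the other. Toward Sprr1b to Sprr4 (81 contacts) it was -0.202 and -0.0164 against 0.251 and 0.418, and toward Crnn, Flg2, Flg and Hrnr (351 contacts) -0.283 and 0.0103 against 0.333 and 0.341. Over the 4 groups together, 812 contacts, the difference was -0.366.

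The observed frequencies alone did not show this order. Toward the filaggrin group their medians were 209 and 137 in keratinocytes and 102 and 104 in thymocytes, and the expected medians 268, 148, 96.2 and 95.5, so keratinocytes had the higher frequency and the lower frequency relative to distance. In keratinocytes 1 of 1214 contacts with the 4 groups was called (0.0824%, against 1.99% of all contacts of the locus and 2.34% of those at 100 to 500 kb). In thymocytes 23 of 1078 were called (2.13%, against 4.03% and 4.19%), so both shares were below their background.

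Among the more distant regions, several differences in the mean were not seen in the median. Toward the S100a1, S100a13, S100a14 and S100a16 genes (35 contacts, over 2 Mb away) the mean Z score was -0.230 and 0.432 in keratinocytes and 1.15 and 1.74 in thymocytes, while the difference of medians was 0.0213 with overlapping libraries. Toward S100a7a to Pglyrp4, which holds the S100a8 and S100a9 genes of antimicrobial proteins, it was 0.580 and 0.781 against 1.25 and 1.20 (98 contacts), and the difference of medians was 0.204, with keratinocytes higher. Thymocytes were also higher toward S100a11 and S100a10 (0.136 and 0.0858 against 0.439 and 0.267) and toward the broadly expressed genes at both ends of the locus. The values were -0.0214 and 0.407 against 0.539 and 0.735 for Nup210l to Chtop, 0.0119 and 0.331 against 0.427 and 0.511 for Tuft1 to Pi4kb, and -0.0279 and 0.262 against 0.631 and 0.923 for Zfp687 to Setdb1. The third region with keratinocytes higher was Them4 to Snx27 (0.440 and 0.416 against 0.199 and 0.0380), and its difference became -0.257 when each library used all its listed contacts. The S100a3 to S100a6, Rptn and Tdpoz regions overlapped. Without keratinocyte library 1 the difference became -0.230 for Nup210l to Chtop and -0.138 for Tuft1 to Pi4kb, and without thymocyte library 1 it became -0.156 for S100a11 and S100a10. By medians the libraries overlapped for Nup210l to Chtop (0.0875), Tuft1 to Pi4kb (-0.0319) and Zfp687 to Setdb1 (-0.0529). They also overlapped on the log2 scale for Nup210l to Chtop, Tuft1 to Pi4kb and S100a7a to Pglyrp4, and with library means subtracted for S100a11 and S100a10.

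Seen from single fragments, the Lce1 window was divided. Of 36 fragments with contacts listed in all 4 libraries, 7 had a higher mean Z score in both keratinocyte libraries (background 13.8% of 640 fragments of the locus). The mean was taken over all contacts of a fragment. Both thymocyte libraries were higher for 9, a share near the background of 25.5%, and 20 overlapped. Those higher in keratinocytes included the TSS fragments of Lce1e, Lce1d and Lce1h. Lce1e had 1.11 and 0.855 in keratinocytes and 0.543 and 0.0949 in thymocytes. Lce1d had 1.13 and 0.483 against 0.303 and 0.150, and Lce1h 0.956 and 0.651 against 0.632 and 0.575. The TSS fragment of Lce1a1 was higher in thymocytes (0.0648 and 0.190 against 0.218 and 0.201), as was that of Kprp, with 24 contacts (1.41 and 0.682 against 2.30 and 2.26). Those of Lce1a2, Lce1b and Lce1l overlapped. No fragment passed a test (exact permutation p = 0.333 for each of the 16, adjusted 0.75 over 36 fragments). With all 4 libraries kept, other settings gave 1 to 9 fragments higher in keratinocytes and 5 to 17 in thymocytes.

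The 3 fragments with the largest excess in keratinocytes among those with at least 5 contacts were also short-listed in library 1. That library listed 148 contacts of the Lce1e, 156 of the Lce1d and 135 of the last fragment of the window, where keratinocyte library 2 listed 257, 269 and 263. Across the 36 fragments, Spearman's rho between the number of listed contacts and the mean Z score was -0.364 and -0.0835 in keratinocytes and -0.377 and -0.316 in thymocytes. These are descriptions over fragments that share libraries and partners, and the part of the listing in the differences was not tested.

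**Figure D4:**
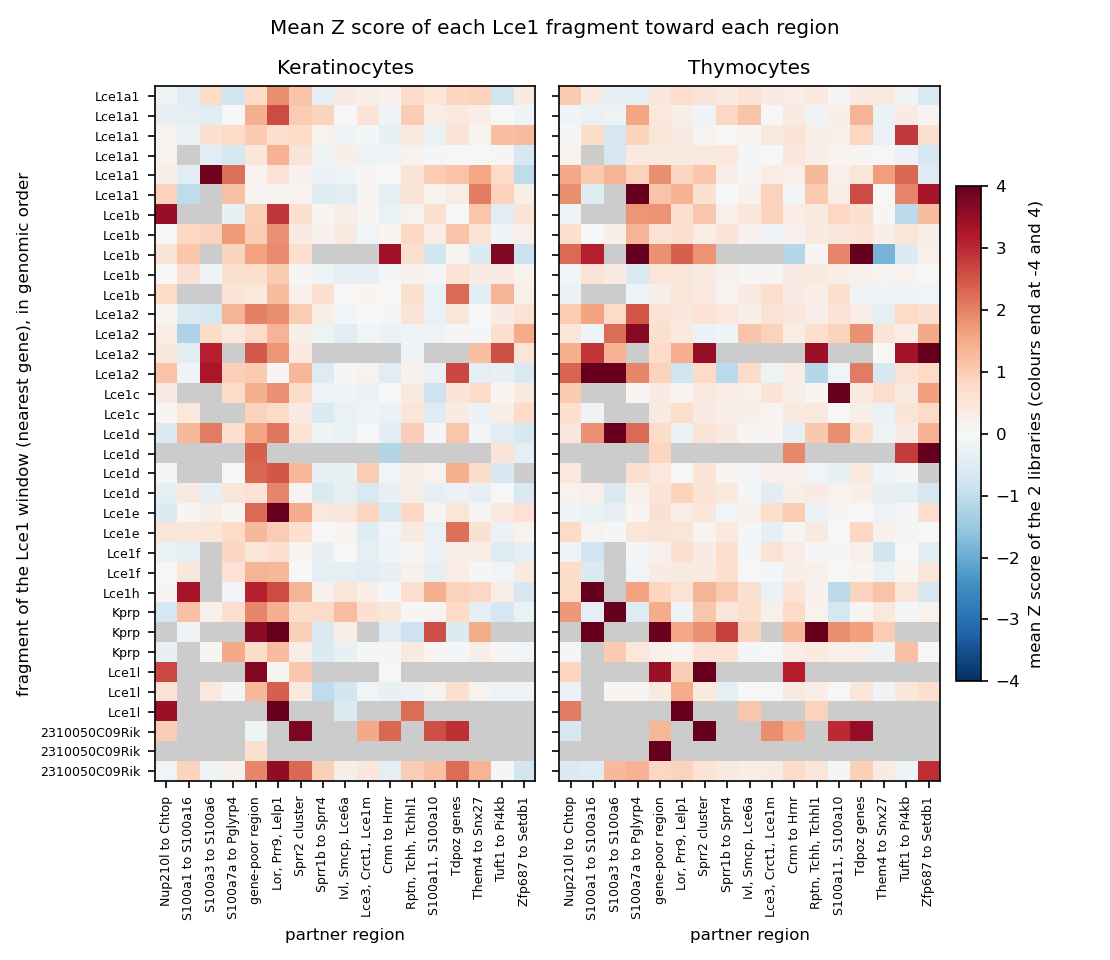
Mean Z score, averaged over the 2 libraries of keratinocytes (left) and thymocytes (right), of each Lce1 window fragment (rows, by nearest gene) toward each region (columns), with the colour scale ending at 4 on either side of 0 and grey for no contact listed in all 4 libraries. The column of Lor, Prr9 and Lelp1 is redder in keratinocytes than in thymocytes over most fragments, and the darkest cells stand alone in both panels.

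Over all distances, calls from the window were no more frequent than in the locus. In keratinocytes 122 of 6479 contacts were called (1.88%, background 1.99%) and in thymocytes 123 of 4105 (3.00%, background 4.03%). The 2994 contacts with a value in every library held 56 keratinocyte calls (1.87%, background 2.03%) and 71 thymocyte calls (2.37%, background 3.77%). Of these, 45 were of keratinocytes only (1.50%, background 1.45%), 60 of thymocytes only (2.00%, background 3.19%) and 11 of both (0.367%, background 0.581%). Of the 122 keratinocyte calls, 28 were listed in neither thymocyte library and 38 in 1 of them, so their absence there is not measured. Of 121 outward calls in keratinocytes, 86 ran upstream (71.1%, against 48.4% of the outward contacts listed in both libraries), and 61 ended in the gene-poor region or the Lor group (50.4%, against 18.7% of those listed). Of 120 in thymocytes, 65 ran upstream (54.2%, against 47.0%) and 29 ended in these regions (24.2%, against 18.04%). At 100 to 500 kb the share called was 6 of 1184 in keratinocytes (0.507%, against 2.34% over the locus) and 26 of 1111 in thymocytes (2.34%, against 4.19%). At 500 to 1000 kb it was 48 of 1592 (3.02%, against 1.67%) and 23 of 1085 (2.12%, against 3.51%).

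Of the 10 strongest keratinocyte calls, ranked by the lower Z score of the libraries, 6 ended in the Lor group. The first of all joined a fragment 5510 bp from the Them5 TSS to an intron of Lce1a2 over 1678 kb (11.91 and 8.27, not listed in thymocytes). The second joined a fragment 7724 bp from the Lce1a1 TSS to an intron of Nup210l, nearest to Rps27, a gene of a ribosomal protein (7.34 and 7.33, not listed in thymocytes). A call from Lce1a1 toward Tnfaip8l2 (5.79 and 10.68) was not listed in thymocytes either. The last fragment of the window met the Lelp1 fragment with 7.23 and 8.84 in keratinocytes and 3.08 and 1.94 in thymocytes. The Lce1h TSS fragment made 2 of the 10, with a fragment 13790 bp from the Lelp1 TSS (6.05 and 11.76) and with the gene-poor region toward Pglyrp3 (5.78 and 9.92). Both were high in thymocyte library 1 as well (10.06 and 4.96). The Lelp1 contact was not listed in thymocyte library 2, and the Pglyrp3 contact had 2.46 there and was called in both cell types. The contacts of the Prr9 fragment with the last window fragment and of the Lce1l fragment with the second Lor fragment were called in both too.

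In thymocytes the first 10 calls reached fragments nearest to S100a13, Slc27a3, Sprr3, Gabpb2, Crnn, Pogz and Setdb1, and the Pglyrp4 side of the S100 genes. The fragment nearest to Slc27a3, 10918 bp from its TSS, had its probe in an intron of Ints3. The S100a13 intron met the Lce1a2 TSS fragment over 2151 kb with Z scores of 14.26 and 16.85 in thymocytes and -0.389 and 0.135 in keratinocytes. Its observed frequency was 350 and 106 in thymocytes and 41.7 and 37.9 in keratinocytes, where 54.2 and 35.5 were expected. The Sprr3 fragment met the Lce1l TSS fragment with 9.91 and 11.23 in thymocytes and -1.92 in keratinocyte library 1. Lce1a2 also met a fragment 5890 bp from the TSS of Crnn, which encodes cornulin, with 11.16 in thymocyte library 1 and -1.51 and 2.48 in keratinocytes.

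None of the 16 putative enhancers that the study listed lay in the window, so contacts with them ran outward. Over 294 contacts of window fragments with fragments within 10 kb of an enhancer, the mean Z score was -0.154 and 0.268 in keratinocytes and 0.549 and 0.576 in thymocytes. Taken singly, E2, E4, E9, E14 and E15 had thymocyte libraries above both keratinocyte libraries. For every other enhancer with contacts listed in all 4 libraries, the libraries overlapped. In keratinocytes 11 of 730 such contacts were called (1.51%, against 1.99% of other outward contacts, and 1.91% of all contacts of the locus with enhancer fragments). In thymocytes 17 of 443 were called (3.84%, against 2.98% and 4.66%). The keratinocyte calls near enhancers E4 to E7, in the S100a3 to S100a6 genes over 2 Mb away, reached Lce1a1, Lce1a2, Lce1d and Lce1l. A fragment 18239 bp from the S100a3 TSS met Lce1a1 with 4.92 and 19.48 in keratinocytes, and was also high in thymocyte library 2 (7.63). The fragment of S100a4 and S100a5 met the Lce1a2 TSS fragment in every library (4.40 and 7.46 in keratinocytes, 3.29 and 16.88 in thymocytes) and was called in both cell types. The other keratinocyte calls joined E1 to 2310050C09Rik, E10 near Hrnr to the same gene, E12 near Tuft1 to Lce1a1, E13 near Cgn to Lce1a2 and Lce1b, and E14 near Pi4kb to Lce1a2. The E14 contact was called in thymocytes too.

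Thymocyte calls reached E2 in S100a13 3 times, once from Lce1a2 and 2 times from the Kprp side of the window. They reached E9 near Crnn from the Lce1h TSS fragment and from a fragment 12951 bp from the Kprp TSS. Others joined E4, E6 and E7 to Lce1a2, Lce1e and Lce1d, and to a fragment 7519 bp from the Lce1l TSS. E10 met Lce1d, E11 near S100a10 met the Kprp TSS fragment, and E15 near Mllt11 met Lce1a1. E13 met Lce1d and the fragment 12951 bp from the Kprp TSS. The enhancers were listed for keratinocytes, and several lie within 10 kb of the same fragments, so a contact can belong to more than 1.

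To see where in the window contacts thinned out, those of 10 to 200 kb that passed over each of 51 positions, 5 kb apart, were averaged. Thymocytes were higher at 28 positions, keratinocytes at 0, and the libraries overlapped at 23. Neighbouring positions shared most or all of their contacts, so the positions are not separate observations. The corresponding shares over the rest of the locus were not computed. The lowest mean over the 4 libraries was 25 kb into the window, at position 92465000 (144 contacts), with a log2 observed over expected of -0.34 and -0.23 in keratinocytes and -0.03 and -0.00112 in thymocytes (difference -0.27, exact permutation p = 0.333). The libraries had no lowest position in common, which lay at 5 and 135 kb in keratinocytes and at 250 and 225 kb in thymocytes. In the last 130 kb a single contact of 109 kb, from the Lce1h TSS fragment, pulled thymocyte library 2 down. Its frequency was 0.561 there, where 313 was expected, and 809, 356 and 519 in the other libraries. Without it thymocytes were higher at 40 positions and overlapped at 11.

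**Figure D5:**
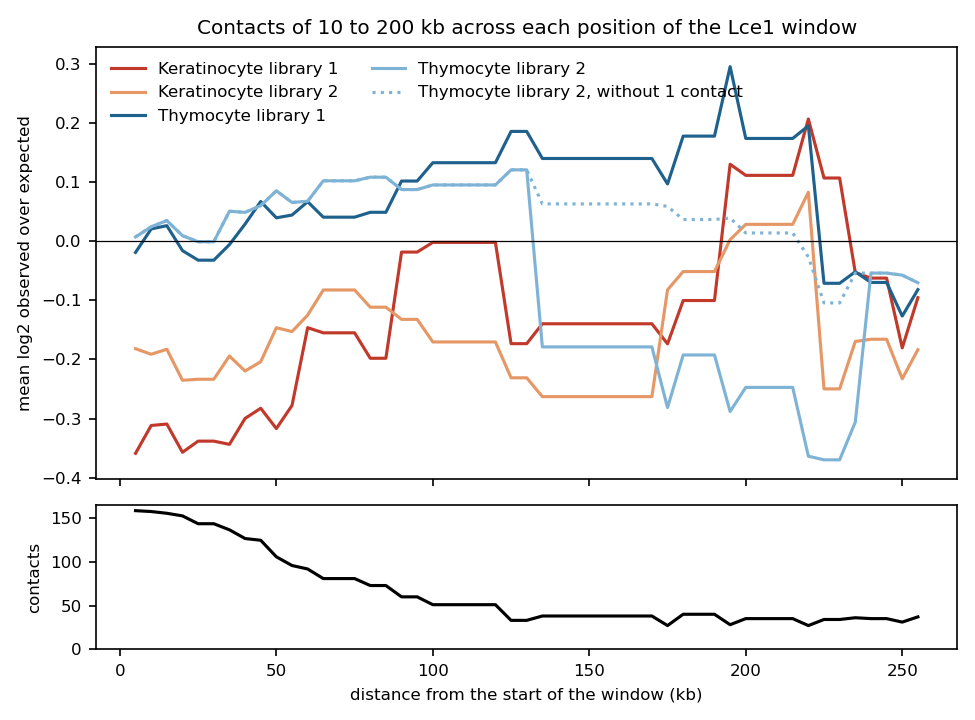
Upper panel, mean log2 of observed over expected frequency of contacts of 10 to 200 kb that pass over each position, against the distance from the start of the window, 1 line per library, with a dotted line for thymocyte library 2 without the contact near 0. Lower panel, the number of contacts behind each position, which falls from over 150 near the start, and the keratinocyte lines stay below the thymocyte lines over the first 130 kb.

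A test of every single contact found none. In limma on the Z scores, 0 of 23395 contacts differed at an adjusted p under 0.05 (background 0%), and 0 of the 2994 Lce1 contacts. At an unadjusted p under 0.05, 113 Lce1 contacts (3.77%) differed, 58 with keratinocytes higher and 55 lower, against 5.11% of all contacts. The smallest adjusted p of an Lce1 contact was 0.767, which is where the contact of S100a13 with Lce1a2 stood too, at a difference of -15.69 with a standard error of 5.02.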

How the data were processed

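The authors aligned reads to the probe sequences with Bowtie, counted forward and reverse probe pairs, dropped probes that worked poorly and extreme single contacts, and then normalized every probe by Loess, library by library. The signal the authors deposited is the resulting 5C frequency, with an expected frequency from distance and its standard deviation. The score they deposited is the Z score, observed minus expected over that deviation. They deposited p-values and q-values from a Weibull fit, per library. The other deposited values are fragment identifiers and distances in kb. Raw counts were not used here, and depth is unknown. Libraries listed 45861 to 95692 contacts.

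Groups came from the sample titles. Fragments were placed by midpoint on mm9 with the GENCODE vM1 annotation, and junctions were read from the probe table and the genome with pysam 0.24.0. Library means over contacts listed in all 4 libraries were compared with two-sided exact permutation tests. Contacts share fragments and are not replicates. limma 3.58.1 in R 4.3.3 (lmFit, and eBayes with trend) ran over all contacts, with Benjamini-Hochberg adjustment, and was tested on simulated data. Other steps used pandas 2.3.3 and numpy 2.4.6 in Python 3.11.15, and figures matplotlib 3.10.9.

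The genes named are those of the window, those of the 10 calls of highest lower Z score in each cell type, and those of every call with an enhancer region. The rule also asked for limma's 3 largest contacts past the threshold in each direction, and none passed. Single fragments and contacts named beyond this rule were chosen after their values were seen. The window, regions and lists were chosen with earlier results of these data known. Alternatives were other scales, summaries, windows, contacts, distances and q thresholds, the block by replicate number and the omission of each library. Of these, 2 were added after seeing the data.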

Additional observations from a re-analysis of the deposited data

Results flagged for a closer look

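Contacts within the window and toward each of the 17 regions were compared with the expected frequency. In 5 of these sets the mean log2 of observed over expected was negative in both keratinocyte libraries and positive in both thymocyte libraries. How often this holds over the whole locus was not counted. Only toward Sprr1b to Sprr4 was the mean Z score also negative in both keratinocyte libraries (-0.202 and -0.0164). It was positive in both within the window (0.0572 and 0.0446) and toward S100a11 and S100a10 (0.136 and 0.0858). The mean log2 of observed over expected frequency, keratinocytes minus thymocytes, was -0.30 for contacts within the window. It was -0.61 toward S100a1, S100a13, S100a14 and S100a16, -0.46 toward Sprr1b to Sprr4, -0.38 toward the filaggrin group and -0.30 toward S100a11 and S100a10. The exact permutation p was 0.333 for each, the smallest that 2 libraries against 2 can give. The S100a1 set held 35 contacts and the Sprr1b set 81.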

How the results depend on the processing

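The lower mean Z score of internal contacts in keratinocytes kept its sign, with no overlap of libraries, under all 11 alternatives (-0.409 to -0.226, and -0.350 to -0.324 leaving out 1 library). The difference toward Lor, Prr9 and Lelp1 did too, from 0.36 on the log2 scale to 1.32, and 0.675 to 1.75 leaving out 1 library. The internal log2 ratio ranged from -0.42 to -0.19 leaving out 1 library, and the replicate block, which pairs libraries of one number, left it at -0.30. Where libraries do not overlap, leaving out 1 can neither bring an overlap nor change the sign. The replicate block repeats the main difference of means by construction. Toward Lor the limit of at least 20 kb removed no contact. These alternatives were thus no check on the sign. The replicate block gave 9 fragments higher in keratinocytes and 12 in thymocytes, and limma with it called 0 Lce1 contacts. It was not run for the counts of called contacts. The labels pair no libraries, and deviations of same-numbered libraries correlated at -0.0937 over 23395 contacts.

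The difference toward all partners reversed to 0.0545 with library means subtracted. Medians in place of means reversed it toward Nup210l to Chtop (0.0875), S100a1 to S100a16 (0.0213) and S100a7a to Pglyrp4 (0.204), and using all listed contacts reversed Them4 to Snx27 (-0.257). The causes were not tested. Leaving out 1 library took the difference toward all partners from -0.0776 to -0.0350. Keratinocyte calls numbered 61 at a q-value under 0.01, 56 over contacts listed in all 4 libraries and 695 to 859 in 1 library alone, and thymocyte calls 71 and 564 to 1002 in the last 2 settings. Fragments higher in keratinocytes numbered 1 on the log2 scale, 2 by medians, 1 with all listed contacts and 10 to 12 leaving out 1 library. Fragments higher in thymocytes numbered 17 with all listed contacts, 5 with library means subtracted and 14 to 18 leaving out 1 library, which compares fewer samples. limma called 0 Lce1 contacts under each of its 7 alternatives. Without the contact near 0 the internal log2 difference was -0.33.

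With 2 libraries per cell type no exact test can pass 0.05. Depth is unknown, frequencies were not scaled between libraries, and 2994 of 12777 Lce1 contacts were listed in all 4, so contacts that a library does not list were not measured.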
